A study of Rattus norvegicus with 2 samples.

Results

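The regions described here are the intervals on rat chromosome 7 at which the transcription factor specificity protein 1 (SP1) was enriched in left ventricular chromatin. They are all entries of the deposited SP1 peak list that lie on chromosome 7, with entries that share a start and an end counted as 1 interval. This gave 500 intervals with 528 summits, out of 7129 intervals with 7525 summits in the whole list, or 7.01% of intervals (Wilson 95% confidence interval 6.44% to 7.63%). Chromosome 7 was singled out because it carries *Cirbp*, the gene whose regulation by SP1 the study examined.

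Chromatin came from male Sprague-Dawley rats, wild type per the series description, and the labels give the treatment as sham for both libraries. The series holds 1 SP1 immunoprecipitate (IP) and 1 input library made without antibody, so no value below has a replicate, no test between groups was possible, and every confidence interval covers counting error only and treats intervals as independent, which close neighbours may not be. The labels give neither the age nor the number of the animals, and for the source they mention primary cardiomyocytes as well as left ventricular myocardium. The study's text places its SP1 ChIP assay in the hearts of aged donors, while its ChIP-qPCR compared aged with young hearts. A peak list holds no cell type markers, so the labelled source could not be checked.

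SP1 is a zinc finger protein that is expressed in most cell types and binds GC-rich DNA, above all the GC box, a short motif common in promoters that lie in CpG islands. It recruits the general transcription machinery to such promoters. CIRBP, the product of *Cirbp*, is an RNA-binding protein that is induced by mild cold, and GPX4, the product of *Gpx4*, is the selenoenzyme that reduces lipid peroxides and thereby restrains ferroptosis. In the RefSeq gene order of the rat assembly GRCr8, *Gpx4* is the 6th protein-coding gene beyond *Cirbp* on chromosome 7, with *Midn*, *Atp5f1d*, *Cbarp*, *Stk11* and *Sbno2* between them, and the gene for SP1 itself lies on the same chromosome. Of 4 cold shock genes, 13 genes of ferroptosis defence and 26 genes of the SP and KLF families listed for this purpose, chromosome 7 of GRCr8 carries *Cirbp*, *Gpx4* and 4 family genes, namely *Sp1*, *Sp7*, *Klf10* and *Klf16*.

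The stretches below show the GC boxes, the motif named above, ahead of the start sites used here for *Cirbp*, *Gpx4* and *Sp1*. Of these genes, the study's text asked about SP1 binding only at the promoter of *Cirbp*. They are from the RefSeq promoter windows of GRCr8, each window running from 250 bases before a gene's start to 50 bases after it, and are written 5′ to 3′ on the gene's strand. Capitals mark GGGCGG or its reverse complement CCGCCC, the letters searched on both strands with overlapping matches allowed.
*Cirbp*, 235 to 206 bases before the start: tccCCGCCCcttggtcgctagcGGGCGGga
*Cirbp*, 140 to 111 bases before the start: gccaacggagtcCCGCCCctgcacccaggc
*Cirbp*, 77 to 48 bases before the start: gcgcggcatgctGGGCGGgctcagaggcgt
*Gpx4*, 129 to 100 bases before the start: aagccCCGCCCCGCCCaagCCGCCCcttca
*Gpx4*, 30 to 1 bases before the start: cagtgggcgtggccgaGGGCGGgcaagcca
*Sp1*, 136 to 107 bases before the start: gcagcagataagGGGCGGggactaggccgg

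The *Cirbp* window held 5 GC boxes, 4 of them ahead of the start, the *Gpx4* window 4 and the *Sp1* window 1. The starts used for *Cirbp* and *Sp1* are not the outermost ones. *Cirbp* as annotated begins 148 bases further upstream and *Sp1* 186 bases. The inner stretches of *Cirbp* and the stretch of *Sp1* therefore lie within the annotated genes. At least 1 GC box was present in 34.9% of all 27457 gene windows (34.3% to 35.5%). The share was 43.1% for the 18999 windows of protein-coding genes (42.4% to 43.8%). For the 896 windows of protein-coding genes on chromosome 7 it was 46.2% (43.0% to 49.5%), with overlapping intervals. Among *Cirbp* and its 20 nearest protein-coding neighbours on each side, 28 of 41 windows held one, or 68.3% (53.0% to 80.4%). Windows with 5 or more boxes, as at *Cirbp*, made up 2.48% of all windows and 3.23% of those of protein-coding genes. They made up 3.35% of those of protein-coding genes on chromosome 7, and 5 of these 41, or 12.2%. These counts describe the letters of the assembly and are not measurements of SP1.

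Whether an interval of the list lies at *Cirbp* or *Gpx4* was not analysed here, although the study reported SP1 enrichment in the *Cirbp* promoter from its ChIP-seq. The submitters' processing notes name the build Rnor_6.0, whereas the scaffold names in the list are those of the later assembly mRatBN7.2. The gene positions at hand are of GRCr8, so none were used. Intervals are therefore named by their position in the list, counted from 1, and the genes, exons or introns in which they lie are not given.

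Chromosome 7 ranked 5 of the 20 autosomes by density, with 3.72 intervals per Mb (exact Poisson 95% interval 3.4 to 4.06), counted up to its last interval at 134 Mb. The other 19 autosomes together had 2.83 per Mb (2.76 to 2.90), which makes a ratio of 1.31 (exact binomial 95% interval 1.20 to 1.44). Chromosomes 10 and 12 were the 2 autosomes whose intervals lay wholly above that of chromosome 7. For 12 autosomes the interval lay wholly below it, and for 5 it overlapped, so the rank of chromosome 7 among its neighbours is not resolved at this depth. Without the dense stretch described next, the ratio was 1.12 (1.01 to 1.24).

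**Figure D1:**
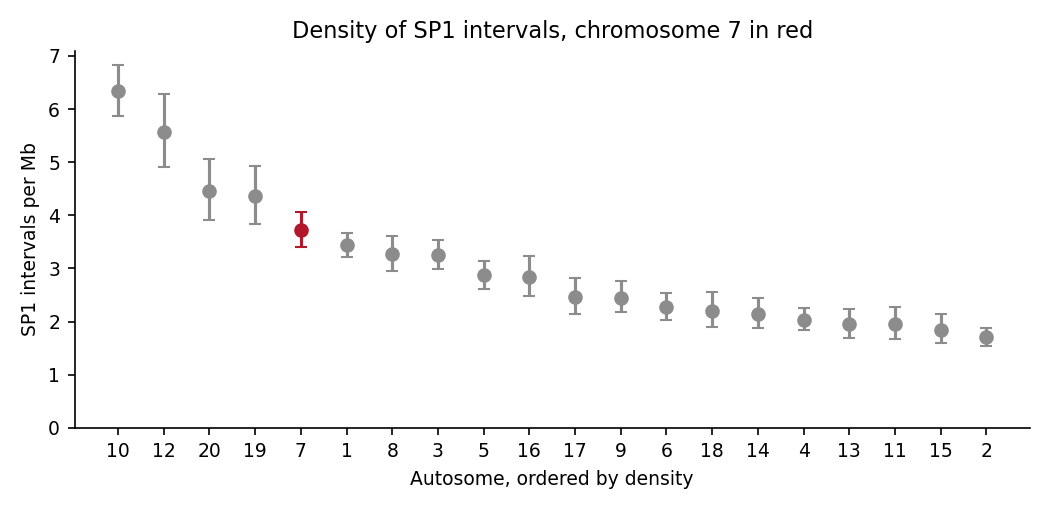
SP1 intervals per Mb on each of the 20 autosomes, ordered by density, with exact Poisson 95% intervals as bars and chromosome 7 in red. Chromosome 7, at 3.72 per Mb, sits below chromosomes 10, 12, 20 and 19, and its bar overlaps those of 5 autosomes.

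Along the chromosome the intervals were gathered in a few places. In 135 bins of 1 Mb the median was 2 intervals, 46 bins had none, 56 had 1 to 4, 18 had 5 to 9, and 15 had 10 or more. These 15 bins held 260 intervals, or 52.0% of the total (47.6% to 56.3%). The 3 fullest bins were those from 8 to 9 Mb with 42 intervals, from 9 to 10 Mb with 37, and from 108 to 109 Mb with 21. The first of them was also the fullest of the 2458 bins on all autosomes and the second came next, ahead of 34 intervals in the bin from 18 to 19 Mb of chromosome 16.

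The share of empty bins was much like that elsewhere. It was 34.1% on chromosome 7 (26.6% to 42.4%) and 35.4% on the other autosomes (33.5% to 37.4%). Full bins made up 11.1% of chromosome 7 (6.85% to 17.5%) against 6.63% of the other autosomes (5.69% to 7.71%), with overlapping intervals. The variance of the counts per bin was 10.2 times their mean on chromosome 7 and 5.45 times on the other autosomes. Independent placement at an even rate would give about 1. The second value pools autosomes of unlike density, from 1.70 to 6.34 intervals per Mb.

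**Figure D2:**
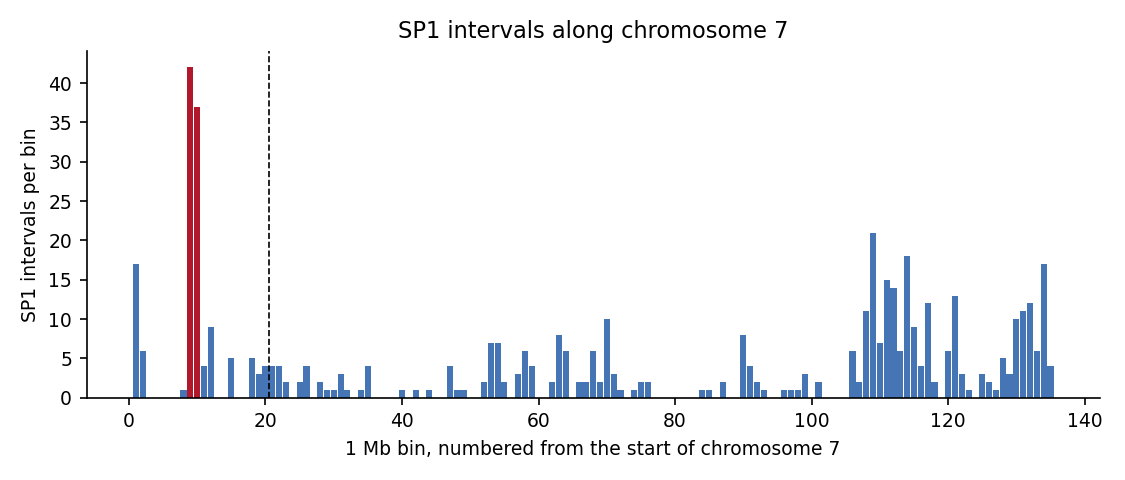
Number of SP1 intervals in each 1 Mb bin of chromosome 7, numbered from the start of the chromosome, with the bins from 8 to 10 Mb in red and a dashed line after the first 20 bins. The 2 red bins hold 42 and 37 intervals, no other bin holds more than 21, and the far part of the chromosome is filled more evenly.

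The first 20 Mb held 133 intervals, or 6.65 per Mb (5.57 to 7.88), and the remaining 114 Mb held 367, or 3.21 per Mb (2.89 to 3.55). The ratio of the densities was 2.07 (1.69 to 2.54). This excess came from the 2 Mb between 8 and 10 Mb, which were chosen after the bins were seen and held 79 of the 133 intervals, or 59.4% (50.9% to 67.4%). With these 2 Mb left out, the first part had 54 intervals in 18 Mb, or 3.0 per Mb (2.25 to 3.91), and the ratio to the remainder was 0.936 (0.690 to 1.25). A difference in density between the first 20 Mb outside the dense stretch and the remainder taken as a whole was not detectable. The remainder joins unlike parts, with 1.76 per Mb (1.48 to 2.08) from 20 to 100 Mb and 6.56 per Mb (5.73 to 7.47) beyond 100 Mb. The interval around 3.0 per Mb lay wholly above the former and wholly below the latter.

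Such a contrast between the first 20 Mb and the remainder was found on other chromosomes too. The ratio on chromosome 7 ranked 4 of 20, after chromosomes 20 (3.2), 16 (3.15) and 3 (2.77). Among the other 19 autosomes it ran from 0 on chromosome 13 to 3.2, with a median of 1.02. It lay wholly above 1 within counting error on 7 of them and wholly below 1 on 6.

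Between 8 and 10 Mb the density was 39.5 per Mb (31.3 to 49.2), which was 12.4 times that of the remainder of the chromosome (9.65 to 15.8). The stretch is 1.49% of the analysed length and held 15.8% of the intervals (12.9% to 19.3%). Its intervals ran from position 8000433 to 9926027 with no long break. Every one of its 20 bins of 100 kb held at least 1 interval, the fullest held 10, and the longest gap was 123 kb. At its summits the expected tags had a median of 1.06, an upper quartile of 1.31 and a maximum of 2.64 times the lowest in the list, against 1.11, 1.25 and 3.93 times on chromosome 7 outside it. These values are known only at listed summits and do not give the input of the stretch as a whole.

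The dense stretch differed from its surroundings in the number of intervals and little in their strength. Their median fold was 6.02 (quartiles 4.52 and 7.62) compared with 6.03 (4.90 and 7.37) on the chromosome outside it. Their median width was 372 bp against 380 bp. A fold of at least 10 was reached by 11 of 79, or 13.9% (7.96% to 23.2%), and outside by 41 of 421, or 9.74% (7.26% to 12.9%). Several summits within 1 interval were found in 9 of 79, or 11.4% (6.11% to 20.3%), against 17 of 421, or 4.04% (2.54% to 6.37%), where the intervals overlap slightly.

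**Figure D3:**
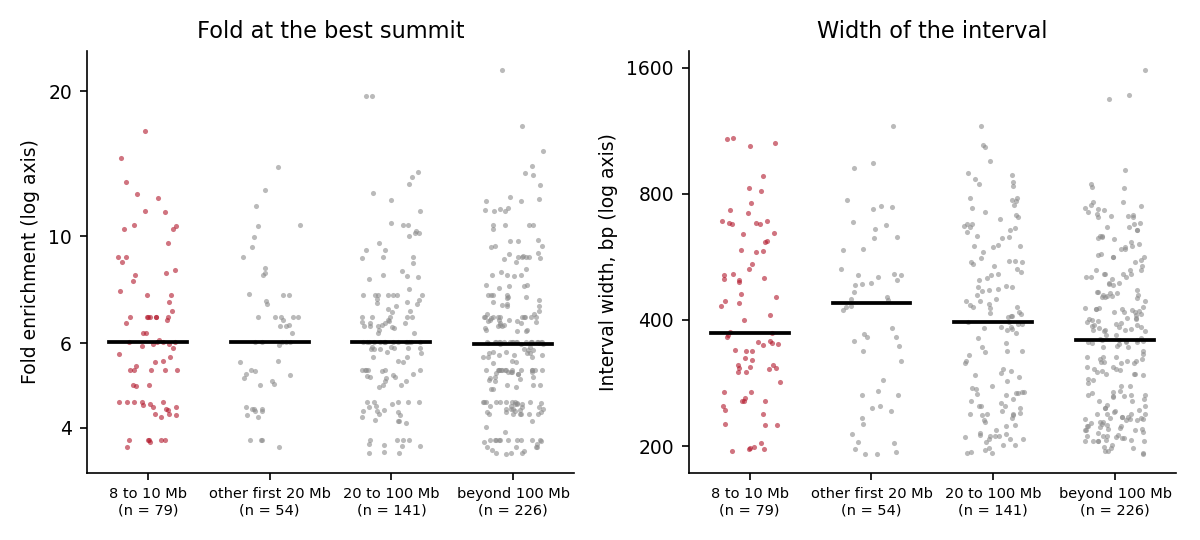
Fold enrichment at the best summit (left, log axis) and width in bp (right, log axis) of each SP1 interval in 4 parts of chromosome 7, where each point is 1 interval and the black line is the median. The median folds lie between 5.99 and 6.03, and the clouds of points overlap over nearly their whole range in all 4 parts.

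The far end was the other rich part of the chromosome. Beyond 100 Mb, a boundary also chosen after the bins were seen, 226 intervals lay in 34.5 Mb, or 6.56 per Mb (5.73 to 7.47), and they made up 45.2% of all members (40.9% to 49.6%). Between 20 and 100 Mb there were 141 intervals, or 1.76 per Mb (1.48 to 2.08), so the far end was 3.72 times as dense (3.0 to 4.63). The first 20 Mb had 1.01 times the density of the far end (0.812 to 1.26), a difference within counting error. The far end was filled differently from the stretch at 8 to 10 Mb: 29 of its 35 bins held an interval, 11 held 10 or more, and the fullest held 21. Of the 80 bins between 20 and 100 Mb, 31 were empty and the fullest held 10.

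Large parts of chromosome 7 carried no interval at all. In 32 places consecutive intervals were more than 1 Mb apart, and these gaps added up to 77.7 Mb. The longest ran for 7.38 Mb from position 75811564 to 83189558, and the next for 6.11 Mb from 1351137 to 7460591, between the intervals at the chromosome start and the dense stretch. Others of 4.85 Mb and 4.31 Mb began at 100160432 and 34932289. What these gaps hold cannot be read from a list of peaks.

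The distance to the nearest other interval had a median of 26.4 kb on chromosome 7 and 42.1 kb on the other autosomes. A neighbour within 10 kb was present for 144 of 500 intervals, or 28.8% (25% to 32.9%), against 23.3% on the other autosomes (22.3% to 24.3%). Most of this difference lay in the dense stretch, where 49 of 79 intervals had such a neighbour, or 62.0% (51.0% to 71.9%). Outside it the share was 22.6% (18.8% to 26.8%), which overlaps that of the other autosomes.

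**Figure D4:**
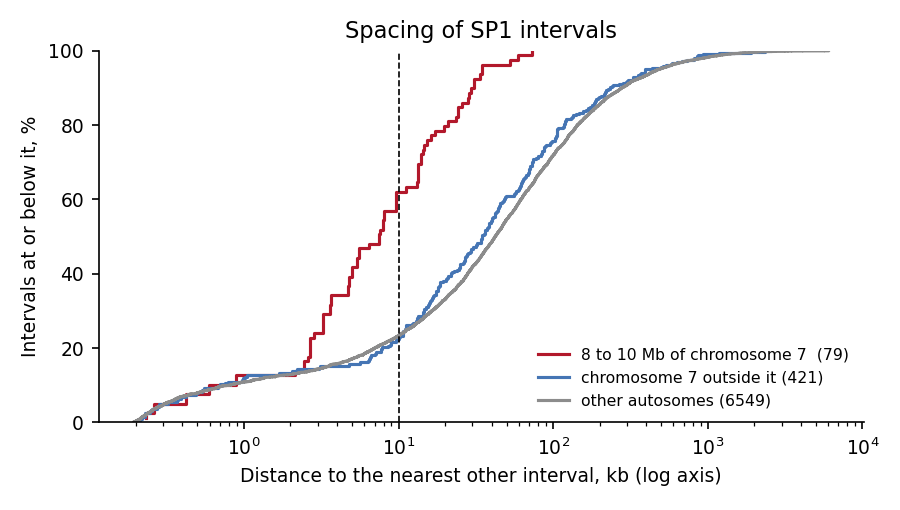
Share of SP1 intervals (%) whose nearest other interval lies at or below a given distance in kb (log axis), for the 79 intervals at 8 to 10 Mb of chromosome 7, the 421 outside it and the 6549 on the other autosomes. At 10 kb, marked by the dashed line, the red curve is at 62.0% while the others lie at 22.6% and 23.3%.

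Intervals linked by gaps of at most 10 kb formed 61 groups on chromosome 7, of which 50 were pairs and 18 began in the dense stretch. The largest held 9 intervals within 33.6 kb, from position 9533299 to 9566888. Its members carried 5 to 13 tags at their best summits, with folds from 4.20 to 10.6, and 5 of the 9 stood at the lowest expectation of the list. None of the 9 was therefore outstanding by itself, and the group stood out by number. Groups of this size were not restricted to chromosome 7, since the other autosomes had 3 groups of 9 or more, the largest of 13. A group of 5 intervals lay at 8524116 to 8551429, and another of 5 at 133231640 to 133249004. The closest intervals were 0.199 kb apart, within a group of 3 that filled 2.48 kb from 69472123 to 69474606 and had folds of 6.46, 7.07 and 10.2.

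The depth behind each fold was read from the list itself. The fold is taken as (tags + 1)/(expected tags + 1) and the p value as the Poisson probability of more tags than seen. A tag here means what the peak caller counted as 1 fragment or read. With these formulas each of the 528 summits had exactly 1 matching whole tag count. The best summits of the 500 intervals had a median of 7 tags (quartiles 6 and 9, range 4 to 29), the same median as on the other autosomes. In 270 intervals, or 54.0% (49.6% to 58.3%), the best summit had 7 tags or fewer, 42 had only 4, and 5 had more than 20. At the lowest expectation of 0.326 tags, 7 tags give a fold of 6.03 with a Poisson 95% interval from 2.88 to 11.6. The intervals of folds hold the expected tags fixed, so they leave out any error in the expectation.

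The median fold on chromosome 7 was 6.03 (quartiles 4.84 and 7.45), compared with 5.93 (4.69 and 7.53) on the other autosomes. The folds ran from 3.53 to 22.2, whereas the other autosomes reached 96.0. For 462 intervals, or 92.4% (89.7% to 94.4%), the counting interval of the fold enclosed the median of the chromosome. The other 38 lay above it. The threshold of the list left little room below it. Even 4 tags, the fewest on the chromosome, give a fold of 3.77 (1.58 to 8.48) at the lowest expectation. At most intervals, then, the strength of enrichment could not be ranked. A fold of at least 20 was reached by 1 of 500 intervals, or 0.2% (0.0353% to 1.12%), and by 0.458% (0.321% to 0.653%) on the other autosomes.

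At the threshold of the list, the weakest interval lay at 132484977 to 132485211, with 4 tags, a fold of 3.53 (1.48 to 7.95) and a q value of 0.0454. The next 2 had 4 tags each and a fold of 3.54. Sites below the threshold are not in the list, so their values cannot be given.

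The 10 intervals of highest fold had 17 to 29 tags. The strongest lay at 119952710 to 119954289, in the rich far end, with 29 tags and a fold of 22.2 (15.1 to 31.5), and with 1580 bp it was also the widest interval of the chromosome. A weaker interval of 8 tags and a fold of 4.85 lay 0.274 kb beyond it, where the expectation was 2.62 times the lowest. In the whole list the strongest interval of chromosome 7 ranked 20 by fold.

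The second, at 89676414 to 89677047, was 19.6-fold enriched with 27 tags (13.2 to 28.2), and the third, at 63844479 to 63845125, was 19.6-fold enriched with 25 tags (13.0 to 28.6). The third stood alone, with its nearest neighbour 330 kb away, while the second had one at 7.01 kb. Both lay between 20 and 100 Mb, in bins of 8 and 6 intervals against a median of 2 per bin. The fourth, at 116152164 to 116152651, was 16.9-fold enriched with 22 tags (10.9 to 25.3).

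In the dense stretch the strongest interval ranked 5 and lay at 8372553 to 8373095, with 21 tags and a fold of 16.6 (10.6 to 25). The other from that stretch, at 8915926 to 8916336, ranked 7 with 19 tags and a fold of 14.5 (9.03 to 22.3). An interval just beyond the stretch, at 10000220 to 10000566, ranked 9 with 18 tags and a fold of 14.0 (8.57 to 21.6). The first 20 Mb thus gave 3 of the 10 and the part beyond 100 Mb gave 4, among them those at 116733161 to 116733986 (15.0-fold) and 113371084 to 113371912 (14.0-fold). The tenth, at 46432912 to 46434072, was 13.6-fold enriched with 17 tags (8.22 to 21.3). The counting intervals of all 10 overlapped that of the first, so their order is not resolved.

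**Figure D5:**
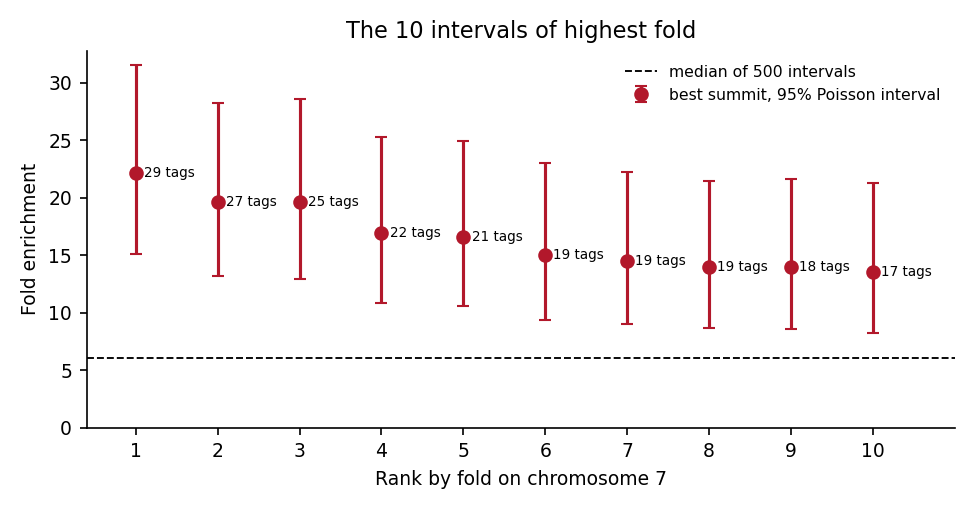
Fold enrichment at the best summit of the 10 chromosome 7 intervals of highest fold, with 95% Poisson intervals from the tag counts written beside them and a dashed line at the median of 500 intervals. All 10 bars lie above the median of 6.03, which the choice by highest fold favours and for which the bars make no allowance. Each overlaps the bar of the strongest interval, which starts at 15.1.

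Median width was 378.5 bp on chromosome 7 (quartiles 257 and 537 bp) against 352 bp on the other autosomes, and the 500 intervals covered 215 kb in total. The narrowest, 192 bp, occurred 3 times, once each at 945564, 11868498 and 131290865, with 4 or 5 tags. The widest after the strongest interval were 1375 bp at 109423579 and 1346 bp at 107596103, with folds of 9.05 and 7.89, so neither was among the 10 of highest fold. The best summit lay within the middle 50% of the interval in 75.6% of cases (71.6% to 79.2%), and in 76.3% on the other autosomes (75.2% to 77.3%).

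Several summits were listed in 26 intervals, or 5.20% (3.57% to 7.51%), much as on the other autosomes with 4.96% (4.46% to 5.52%). Of these, 24 had 2 summits and 2 had 3. The distance between consecutive summits ranged from 158 to 567 bp, with a median of 331.5 bp. These intervals had a median width of 730 bp and a median of 10 tags at the best summit, compared with 365 bp and 7 tags at intervals with 1 summit. Room for more than 1 summit requires a wide interval, so width and the number of summits are not independent measures.

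The interval at 9137626 to 9138714 had 3 summits of nearly equal strength, with 16, 17 and 16 tags and folds of 12.2, 12.9 and 12.4. The other with 3 summits, at 107596103 to 107597448, had 10, 8 and 8 tags and folds of 7.89, 6.49 and 6.51. Within an interval the best summit was a median of 1.22 times as enriched as the weakest. The most unequal was the interval at 46432912, where 17 tags stood beside 8 and the folds differed by a factor of 2. At these counts the summits of an interval could seldom be told apart in strength.

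Expected tags varied little at the listed summits of chromosome 7. At 168 of 528 summits, or 31.8% (28.0% to 35.9%), the expectation was the lowest of the list, as at 30.2% on the other autosomes (29.1% to 31.3%). No summit of chromosome 7 reached 5 times the lowest expectation, and the Wilson interval for 0 of 528 reaches up to 0.722%. On the other autosomes 45 summits did, or 0.652% (0.487% to 0.871%). The limit of 0.722% lies above the share of 0.652%, so the intervals overlap. The difference was not tested. The highest expectation on chromosome 7, 3.93 times the lowest, lay near the last interval of the chromosome, at 134375505 to 134375722, where 10 tags gave a fold of 4.82 (2.54 to 8.49). The next, 3.28 times, lay at 74372428 to 74372639, with 14 tags and a fold of 7.25.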

How the data were processed

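ChIP-seq was performed by the authors on 1 SP1 IP and 1 input library. Per the labels, chromatin was crosslinked with 1% formaldehyde and libraries were sequenced with paired reads of 150 bases. The submitters' processing notes name Bowtie2 2.2.6, MACS2 2.2.7.1 and the build Rnor_6.0, without settings. The authors deposited 1 list of peaks called on the IP library, without pooling. Its fold enrichment was deposited as a linear ratio, (tags + 1)/(expected tags + 1). The p-value and q-value were deposited as −log10 values, and the deposited score is a whole number derived from the q-value. Interval positions were deposited in bp.

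All further values come from scipy 1.17.1 and numpy 2.4.6 under Python 3.11.15. Each interval took the fold and tags of its best summit. Tag counts up to 3000 were tried, and a match in −log10 p to within 0.0002 was required. On 1000 simulated summits, 99.9% of counts were recovered. Densities used the length up to the last interval. Stricter thresholds and other groupings were tried as alternatives. Depth beyond the recovered tags is unknown.

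The members and lists were chosen with earlier results of these data known. Intervals were named as the 10 of highest fold, those with 3 or more summits, those of highest expectation, and the widest, narrowest, weakest and most crowded. The 3 fullest bins were named as well. The narrowest, weakest and most crowded were added after the values were seen. Those of highest expectation were also chosen then, because no summit of chromosome 7 reached the planned 5 times the lowest.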

Additional observations from a re-analysis of the deposited data

How the results depend on the processing

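Stricter thresholds lowered the density and changed the make-up of the intervals on chromosome 7, which follows from the removal of weak intervals. For −log10 q thresholds of 5 and 10 and a fold threshold of 5, in that order, the density was 1.62, 0.595 and 2.68 per Mb, the median fold 7.54, 10.6 and 6.70, the median width 500, 529 and 429 bp, and the share with a neighbour within 10 kb 10.6%, 5% and 18.3%. The share with several summits was 11% and 12.5% under the first 2 thresholds. A neighbour within 5 kb was present for 19.4% and within 20 kb for 44.6%. The density ratio of the first part to the remainder was 3.23 for the first 10 Mb and 1.54 for the first 30 Mb.

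Leaving out the stretch from 8 to 10 Mb, an alternative chosen after seeing the data, turned the ratio of the first 20 Mb to 0.936, moved that of chromosome 7 over the other autosomes to 1.12 and the share with a neighbour to 22.6%. The other 21 settings stayed within the counting interval. Among them, the dense stretch kept 11.7 to 14.0 times the density of the remaining chromosome under every threshold and after joining of intervals within 1 kb.

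The planned results on a peak at *Cirbp*, on gene starts and on GC boxes within intervals were not run, because no genome or annotation in the list's own build was used here. With 1 library a group, leaving out a replicate does not apply. No paired analysis was possible because the IP and the input are single libraries.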
